A study of Mus musculus with 12 samples.

Results

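Sox9 and the long noncoding RNA gene Gm11681, its neighbour on mouse chromosome 11, were followed through 12 libraries of the adult dentate gyrus. They are 2 of the 50600 genes in the count table, and they were selected on measured values, namely their levels in these libraries and the correlation between them. Those levels, the differences between cell types and the correlation are therefore given as descriptions without a test. The mice were 6 to 9 weeks old and carried the Nestin-GFP reporter, in which regulatory sequence of the Nestin gene drives green fluorescent protein in neural stem cells and progenitors. Cells with CD31, CD45, O1 or O4, which the study took as markers of endothelium, microglia and oligodendroglia, were left out. The remaining live cells were sorted by the reporter and by GLAST, the glutamate transporter encoded by Slc1a3. Stem cells carried both labels, progenitors GFP alone and astrocytes GLAST alone, all from mice with the same reporter and with no treatment named. Each of the 3 cell types had 4 libraries of 50 cells, with total counts on genes from 5031166 to 12535028. Genes with at least 10 counts numbered 9430 to 11655 in astrocyte libraries, 13368 to 14175 in stem cell libraries and 16389 to 17015 in progenitor libraries. The study describes the cDNA quality of the astrocytes as suboptimal. There, Sox9 failed the read coverage filter in both comparisons with astrocytes and passed it between progenitors and stem cells.

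SOX9 is a transcription factor of the SOX family, which bends DNA through an HMG box. It drives cartilage formation and testis determination, and in the nervous system it is needed for the switch from making neurons to making glia, where it works together with nuclear factor I proteins. In the adult brain it marks astrocytes and radial glia-like stem cells. Long noncoding RNA genes are common around developmental regulators such as Sox9, and being near a gene says nothing by itself about an effect on it.

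In the GENCODE annotation on GRCm38, Sox9 (ENSMUSG00000000567.5) runs on the plus strand at chr11:112782224-112787760, with 3 exons of 792, 254 and 3089 bases. Gm11681 (ENSMUSG00000075437.4), annotated as a lincRNA, runs on the minus strand at chr11:112792731-112799008, with 3 exons of 229, 104 and 537 bases. The genes point towards each other. Their 3′ ends are 4.97 kb apart and their start sites 16.78 kb apart, so Gm11681 ends rather than begins close to Sox9. Neither gene overlaps another annotated gene. Reads counted without regard to strand could thus be given to each gene without competition from the other's exons. Such counts do not tell from which strand a read on the exons of Gm11681 came. This includes its exon of 537 bases, the one nearest to Sox9.

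The start of Gm11681 is shown because it is where transcription of the noncoding member begins. The first sequence is the RefSeq promoter window on GRCm38.p6, chr11:112798959-112799258, read along the minus strand from 250 bases before the start to 50 after it. The second is exon 1 from the GENCODE transcripts, chr11:112798780-112799008 on the minus strand. Capitals in the window mark matches to short motifs, and capitals in exon 1 mark the 50 bases that both sequences share.
Gm11681 promoter window: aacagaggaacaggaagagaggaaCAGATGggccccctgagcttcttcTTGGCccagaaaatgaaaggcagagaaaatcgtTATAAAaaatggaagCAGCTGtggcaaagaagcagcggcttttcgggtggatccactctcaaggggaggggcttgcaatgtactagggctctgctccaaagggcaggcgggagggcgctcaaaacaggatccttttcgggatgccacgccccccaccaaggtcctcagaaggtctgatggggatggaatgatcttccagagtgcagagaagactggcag
Gm11681 exon 1: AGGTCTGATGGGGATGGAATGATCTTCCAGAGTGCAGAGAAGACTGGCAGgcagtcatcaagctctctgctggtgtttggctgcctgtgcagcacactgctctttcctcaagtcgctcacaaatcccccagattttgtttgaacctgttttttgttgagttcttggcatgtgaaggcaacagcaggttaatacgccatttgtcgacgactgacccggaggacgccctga
Both strands of the window were searched. It holds TATAAA, the letters of the TATA box, with its first base 169 bases before the start. This is a match of letters at that distance and does not show a working TATA box. Of the 32851 promoters of this length, 13.6% hold these letters anywhere on either strand. The E-box CANNTG, bound by basic helix-loop-helix factors, matches at 2 positions, first as CAGATG and nearer to the start as CAGCTG, against 72.3% of promoters with at least 1 match. TTGGC, a core of the nuclear factor I site, has 1 match, against 46.7% of promoters. None of 3 SOX motifs was found. These were ACAATG, which 12.6% of promoters hold, the variant ACAAAG, which 18.7% hold, and the shifted form AACAAT, which 10.7% hold and which can overlap the first. The window also lacks CCAAT, held by 37.4% of promoters, whose reverse complement can overlap the nuclear factor I core, as well as the RBPJ motif TGGGAA, held by 25.6%, and the GC box GGGCGG, held by 35.7%. GC made up 54.0% of the window and 52.7% of the median promoter.

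Levels are in CPM, counts per 1000000 counts on genes after TMM scaling of the library sizes. Sox9 was at 144, 142, 217 and 291 CPM in astrocytes a to d. In progenitors a to d it was at 107, 105, 92.2 and 88.5 CPM. In stem cells 1 to 4 it was at 429.8, 256, 333 and 299 CPM. All stem cell libraries lay above all progenitor libraries, and so did all astrocyte libraries, while the highest astrocyte library exceeded the lowest stem cell library. The gap between astrocytes and progenitors depended on the scaling, with TMM factors of 0.78 to 0.92 in astrocytes and 1.16 to 1.23 in progenitors. By library totals alone, astrocyte a (662 of 5904835 counts) would lie below progenitor b (1296 of 10015373), so the ranges would overlap. The means were 198 ± 70.7 CPM in astrocytes, 98.2 ± 9.18 in progenitors and 329.6 ± 73.9 in stem cells (SD, n = 4 each). Between 662 and 4171 counts stood behind each value, and every library therefore held Sox9 transcripts, the progenitors included.

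Gm11681 was at 2.17, 11.2, 35.9 and 37.3 CPM in astrocytes a to d. In progenitors a to d it was at 4.06, 3.34, 11.9 and 4.62 CPM. In stem cells 1 to 4 it was at 36.7, 50.4, 32.9 and 58.3 CPM. All stem cell libraries were above all progenitor libraries, whereas the astrocyte libraries spread across the whole range, with a below every progenitor library and c and d among the stem cell values. The means were 21.6 ± 17.7 CPM in astrocytes, 5.97 ± 3.96 in progenitors and 44.6 ± 11.9 in stem cells (SD, n = 4 each). These rested on 10 to 183 counts in astrocytes, 41 to 130 in progenitors and 264 to 385 in stem cells. Relative to the mean, the SD of Gm11681 was 81.7% in astrocytes and 26.6% in stem cells, and that of Sox9 was 35.7% and 22.4%.

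**Figure D1:**
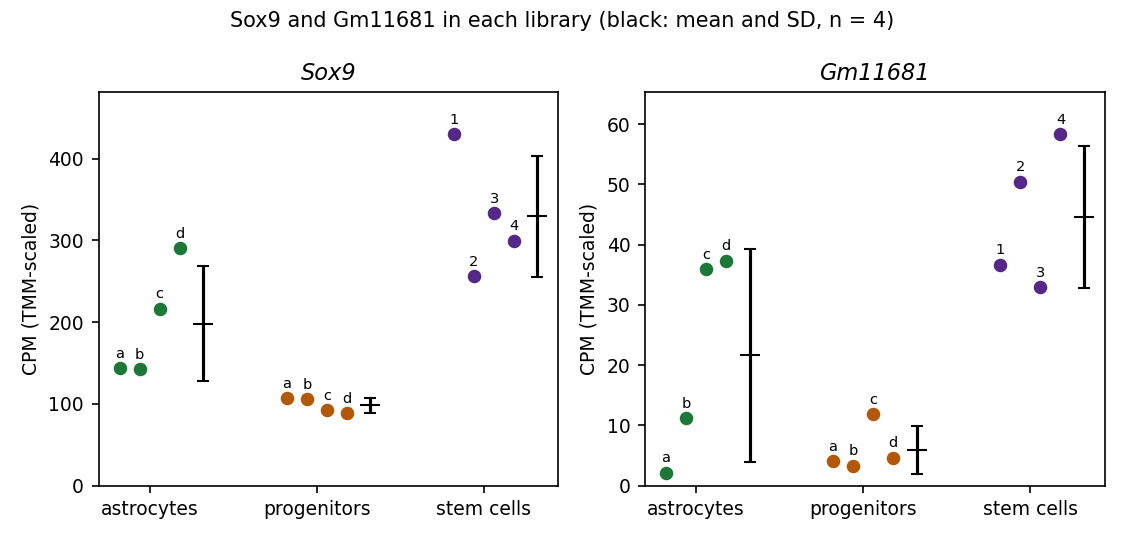
TMM-scaled CPM of Sox9 (left) and Gm11681 (right) in each library of astrocytes, progenitors and stem cells, with replicate names beside the points and the mean and SD of 4 libraries in black. Sox9 is at 88.5 to 107 CPM in progenitors and at 256 to 429.8 CPM in stem cells, and Gm11681 in astrocytes ranges from 2.17 to 37.3 CPM.

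The order of the levels was the same for both genes, with stem cells highest, astrocytes in between and progenitors lowest. For Sox9, the mean was 3.36-fold higher in stem cells than in progenitors, 2.02-fold higher in astrocytes than in progenitors and 1.66-fold higher in stem cells than in astrocytes. For Gm11681 the same ratios were 7.47, 3.62 and 2.06. On the log2 scale of the fit, progenitors over stem cells came to -1.77 (SE 0.20) for Sox9 and -2.92 (SE 0.55) for Gm11681. Astrocytes over progenitors came to 0.99 (SE 0.39) and 1.85 (SE 1.10), and astrocytes over stem cells to -0.74 (SE 0.36) and -1.05 (SE 0.97). Stem cells and astrocytes overlapped for both genes, and astrocytes and progenitors overlapped for Gm11681. All 4 stem cell libraries exceeded all 4 progenitor libraries for 7.71% of the 15427 genes tested, all astrocyte libraries exceeded all progenitor libraries for 6% of 14806, and all stem cell libraries exceeded all astrocyte libraries for 6.27% of 12831. Since the genes were selected on these levels, nothing is read from their standing against these shares. In pools of sorted cells, fewer cells with a transcript and less transcript per cell cannot be told apart.

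Per kilobase of exon, which allows a comparison between the genes, the mean level of Sox9 was 47.9 CPM per kb in astrocytes, 23.8 in progenitors and 79.7 in stem cells. The mean level of Gm11681 was 24.9, 6.86 and 51.2 CPM per kb. Gm11681 was thus below Sox9 in each cell type on this scale, but it was among the higher long noncoding genes of the stem cells. There it ranked 38 to 58 of 1744 to 2024 detected long noncoding genes by level per kb, the top 2.01% to 3.08%. In progenitors it ranked 174 to 686, and in astrocytes 72 to 644. Sox9 ranked 382 to 670 among the protein-coding genes of the stem cell libraries, 1754 to 2216 in progenitors and 559 to 1869 in astrocytes. Of 4459 long noncoding genes with any count, Gm11681 was 1 of 244 that reached 10 counts in each of the 12 libraries.

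The number of Gm11681 counts per 100 Sox9 counts compares the 2 genes within a library and needs no library size. It was 1.51, 7.87, 16.6 and 12.8 in astrocytes a to d. In progenitors a to d it was 3.81, 3.16, 12.9 and 5.22, and in stem cells 1 to 4 it was 8.54, 19.7, 9.88 and 19.5. The 95% Wilson intervals, which cover counting error only, ran from 0.817 to 2.79 in astrocyte a and from 14.2 to 19.4 in astrocyte c, and from 7.66 to 9.51 in stem cell 1 and from 17.7 to 22 in stem cell 2. The means were 9.70 ± 6.52 in astrocytes, 6.26 ± 4.48 in progenitors and 14.4 ± 6.02 in stem cells (SD, n = 4 each), and the ranges of the cell types overlapped. Without progenitor c, the progenitor mean was 4.07. The stem cell libraries fell into a low pair, 1 and 3, and a high pair, 2 and 4, and the low pair had the higher Sox9 levels.

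**Figure D2:**
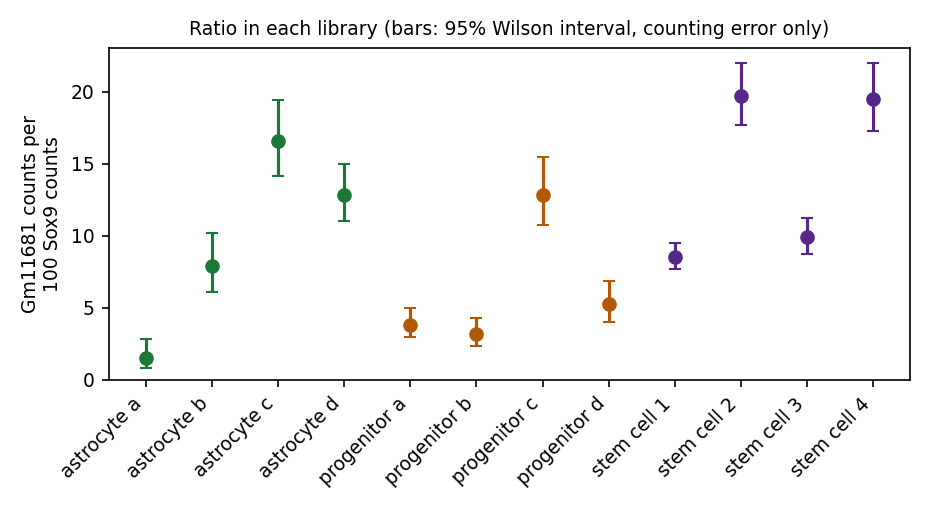
Gm11681 counts per 100 Sox9 counts in each of the 12 libraries, with 95% Wilson intervals that cover counting error only. Values run from 1.51 in astrocyte a to 19.7 in stem cell 2, and the ranges of the 3 cell types overlap.

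Over the 12 libraries, log2(CPM + 1) of Sox9 and of Gm11681 had a Pearson r of 0.83 and a Spearman rho of 0.68. With 1 library left out, r was between 0.81 and 0.88, highest without astrocyte a. Without progenitor d and stem cell 1, the libraries farthest from the Sox9 median, r was 0.83. The 12 points share 3 cell types, and once the mean of each cell type was subtracted r fell to 0.50 and rho to 0.41. In that form, r was 0.34 without astrocyte d and 0.59 without stem cell 1. Within the astrocytes, both genes were below their mean in a and b and above it in c and d. In progenitors, Gm11681 was highest in c, where Sox9 was below its mean, and in stem cells Gm11681 was above its mean in 2 and 4, where Sox9 was below its own.

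**Figure D3:**
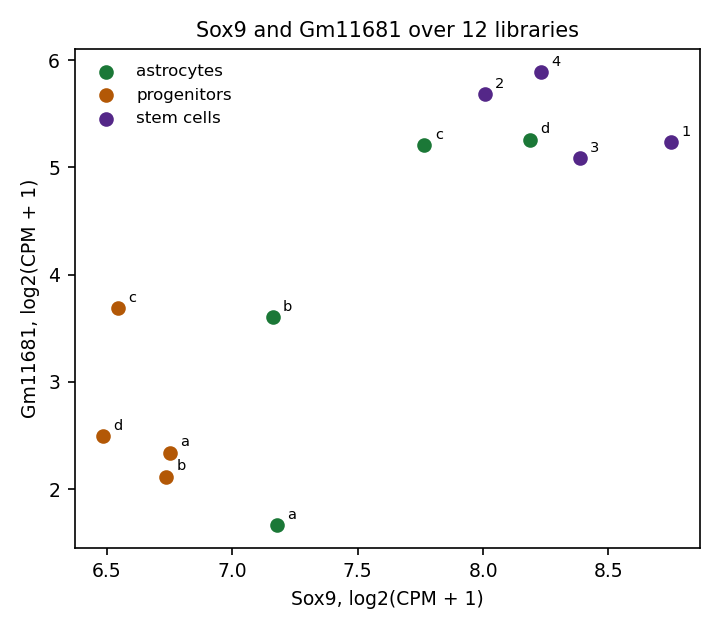
Gm11681 against Sox9, both as log2(CPM + 1), with 1 point per library named by its replicate and coloured by cell type. The 4 progenitor libraries and astrocyte a lie at the lower left and the 4 stem cell libraries at the upper right, and over all 12 points r is 0.83.

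Other measures of the libraries moved with the pair. Slc1a3, the gene of the sort antigen, had r of 0.93 with Sox9 and 0.81 with Gm11681. The summed CPM of 8 astrocyte markers, Slc1a3 among them, had r of 0.93 with Sox9 and 0.74 with Gm11681, and that of 11 oligodendrocyte lineage markers had r of -0.95 and -0.88. Log2 total counts had r of -0.36 and -0.41 with the 2 genes, and the number of genes with at least 10 counts had r of -0.44 and -0.26. The oligodendrocyte lineage markers, Olig1, Olig2, Pdgfra and Mbp among them, summed to 1761 to 2785 CPM in progenitors. Their sum was 181 to 555 CPM in stem cells and 260 to 2941 CPM in astrocytes. Enpp6 was at 0 in progenitors, Bmp4 in stem cells, and Enpp6, Bmp4 and Mag in astrocytes. The 2941 CPM was in astrocyte a, the library with the lowest Gm11681 level of all 12. Neuronal progenitor markers, 8 of 8 with at least 10 counts in some progenitor library, summed to 628 to 1379 CPM in progenitors, to 5.74 to 18.4 CPM in stem cells, where Neurog2, Mki67 and Top2a were at 0, and to 6.96 to 229.8 CPM in astrocytes, where Eomes and Igfbpl1 were at 0. Their r was -0.84 with Sox9 and -0.80 with Gm11681. Neuron markers summed to 258 to 368 CPM in progenitors, 74.4 to 99.1 in stem cells, with Gad2 at 0, and 197 to 1346 in astrocytes, highest in astrocyte a, with r of -0.68 and -0.80. Microglia markers summed to 5.74 to 17.3 CPM in progenitors, 25.9 to 69.3 in stem cells and 16.1 to 126 in astrocytes. Their r was 0.70 with Sox9 and 0.50 with Gm11681. Aif1, Ctss and Tmem119 were at 0 in progenitors, Cx3cr1 and Aif1 in stem cells, and Tmem119 in astrocytes. Mural markers summed to 38.5 to 2122 CPM in progenitors, 57.7 to 98.0 in stem cells and 33.1 to 191 in astrocytes. Of these, Abcc9 was at 0 in astrocytes. The astrocyte markers summed to 25874 to 34058 CPM in stem cells, 16982 to 23249 in astrocytes and 8063 to 10873 in progenitors. The 8 stem cell markers summed to 831 to 1028 CPM in stem cells, 423 to 746 in progenitors and 317 to 796 in astrocytes, with Lpar1 at 0 in stem cells, Vnn1 at 0 in progenitors and Nes and Vnn1 at 0 in astrocytes. The r with Sox9 and with Gm11681 was 0.64 and 0.64 for stem cell markers and -0.60 and -0.39 for mural markers. It was -0.50 and -0.43 for ependyma markers and 0.22 and 0.36 for endothelium markers. Endothelium markers summed to at most 88.4 CPM, in stem cell 2, and ependyma markers to at most 120 CPM, in progenitor a. The part of all these measures in the levels of Sox9 and Gm11681 was not tested.

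For background, r was also computed for other neighbouring pairs of a long noncoding and a protein-coding gene, each reaching 10 counts in 4 or more of 12 libraries. Among 1055 pairs with start sites within 10 kb, the median r was 0.29, the quartiles were -0.06 and 0.63, and 11.8% of pairs were at or above 0.83. Sox9 and Gm11681 themselves enter once the limit is 20 kb, where the share was 10.3% of 1555 pairs. Among 802 pairs whose gene bodies do not overlap and lie at most 10 kb apart, a set chosen after the distances had been seen, the median r was 0.08 and 8 pairs (0.998%) reached 0.83, Sox9 with Gm11681 included. The others were Hist2h2aa2 with Gm20634 and with Gm20633, Hist2h2aa1 with Gm20632, Mt1 with Gm45774, Msi2 with C030037D09Rik, Rpl13a with Gm45552, and Syt11 with 1500004A13Rik. The Hist2h2aa genes are near-identical copies, so reads can be split between them and these 3 pairs are uncertain. Where both genes had to reach 10 counts in each library, 27.9% of 122 pairs were at or above 0.83, so these shares depend on which pairs are taken. Since Sox9 and Gm11681 were selected for their r, nothing is read from its place among the pairs.

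The genes whose levels were most like those of Sox9 over the 12 libraries, by Pearson r of log2(CPM + 1) among 16118 genes, were Gstm5 (r 0.97), Tspan7, Selenop, Rorb, Gstm1, Adhfe1, Sparcl1, Apoe, Idi1 and Lgr4 (r 0.94). Gstm5 and Gstm1 encode glutathione transferases, Selenop a selenium carrier, Rorb a nuclear receptor, Sparcl1 a matrix protein of astrocytes and Apoe the main lipid carrier of the brain. Apoe was at 32231 CPM in astrocytes, 14749 in progenitors and 43965 in stem cells, and Rorb at 156, 85.2 and 236 CPM, each in the order seen for Sox9. Of the 10, 5 were also among the 10 with the highest Spearman rho. Gm11681 ranked 81st by r, and 126 genes had r above 0.8. Gstm1 and Gstm5 belong to a family of similar sequences, and their counts may share reads.

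The genes most like Gm11681 were Luzp2 (r 0.94), Atp6v0e, Mlc1, Nat8f4, Lrrc58, the long noncoding E330013P04Rik, Nkain4, Tram2, Plekho2 and Hbegf (r 0.90). Mlc1 encodes a membrane protein of astrocyte end feet, Atp6v0e a subunit of the vacuolar proton pump and Hbegf a ligand of the EGF receptor. Mlc1 was at 686 CPM in astrocytes, 295 in progenitors and 845 in stem cells. E330013P04Rik was at 45.8, 29.1 and 87.9 CPM. Sox9 ranked 50th, and 88 genes had r above 0.8. The lists of 10 shared 0 genes, and 2 of the 10 most like Gm11681 were also named by rho.

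Within 2 Mb of the Sox9 start lie 35 other genes of the table. Of these, 17 had no count in any library, 5 had counts below the filter and 13 passed it, namely 11 protein-coding and 2 long noncoding genes. The cell types were compared in pairs by edgeR's quasi-likelihood test, p-values were adjusted across the table by the Benjamini-Hochberg method, and a gene was called at an adjusted p below 0.05. For progenitors against stem cells, 4.95% of all genes tested were called higher in progenitors and 3.66% higher in stem cells. Of the 12 locus genes tested there, 2 were called higher in progenitors and 1 in stem cells. For astrocytes against progenitors, 2.45% of all genes tested were called higher in astrocytes and 6.18% higher in progenitors, and of 12 locus genes 0 and 2 were called (by DESeq2 1 and 3; at an unadjusted p under 0.05 in edgeR 2 and 2). For astrocytes against stem cells, 0.0468% of all genes were called higher in astrocytes and 0% in stem cells. With edgeR, 558 genes were higher in stem cells there at an unadjusted p under 0.05, and DESeq2 called 503. Of 9 locus genes tested, 0 were called by edgeR, 0 had an unadjusted p under 0.05, and DESeq2 called 2.

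BC006965, a long noncoding gene that starts 0.248 kb upstream of Sox9 on the opposite strand, was the nearest of them. It was at 0.868, 102, 1.99 and 32.8 CPM in astrocytes a to d, at 0.62, 3.58, 0 and 1.20 CPM in progenitors and at 12.9, 10.5, 11.1 and 6.52 CPM in stem cells. The stem cell libraries were close together and above all progenitor libraries, while the astrocyte libraries differed widely and in another order than for Gm11681. Its log2 fold change of progenitors over stem cells was -2.93 (SE 1.20, adjusted p = 0.189), and its r was 0.54 with Sox9 and 0.47 with Gm11681. Kcnj16, an inwardly rectifying potassium channel gene 1814 kb before Sox9, was at 139 to 198 CPM in stem cells, 24.9 to 79.5 in progenitors and 97.0 to 212 in astrocytes. It was lower in progenitors than in stem cells (log2 fold change -1.69, SE 0.33, adjusted p = 0.0112), and its r was 0.70 with Sox9 and 0.67 with Gm11681. The call was lost with all 12 libraries in 1 fit.

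The other called genes of the locus went the other way. 2610035D17Rik, a lincRNA that starts 419.6 kb beyond Sox9, was at 87.1 to 141 CPM in progenitors and 52.5 to 62.2 in stem cells (log2 fold change 0.95, SE 0.22, adjusted p = 0.0261), and in astrocytes it was at 0.399 to 140.2 CPM. This call was lost when progenitor a, c or d or stem cell 3 or 4 was left out, and with all 12 libraries in 1 fit. Sstr2, a somatostatin receptor gene, was at 34.9 to 158 CPM in progenitors and had 2 counts in all in the stem cell libraries and 2 in the astrocyte libraries. It was called in both comparisons with progenitors (adjusted p = 0.000247 against stem cells and 0.00248 against astrocytes), and the ratio to stem cells was 1653 with a 95% counting interval of 458 to 13650. Slc39a11, a zinc transporter gene, was at 24.4 to 58.0 CPM in progenitors and 0 to 0.611 CPM in astrocytes (adjusted p = 0.016). The r with Sox9 was -0.17, -0.83 and -0.54 for these 3 genes. Genes on the same stretch of chromosome therefore moved in opposite directions between progenitors and stem cells.

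**Figure D4:**
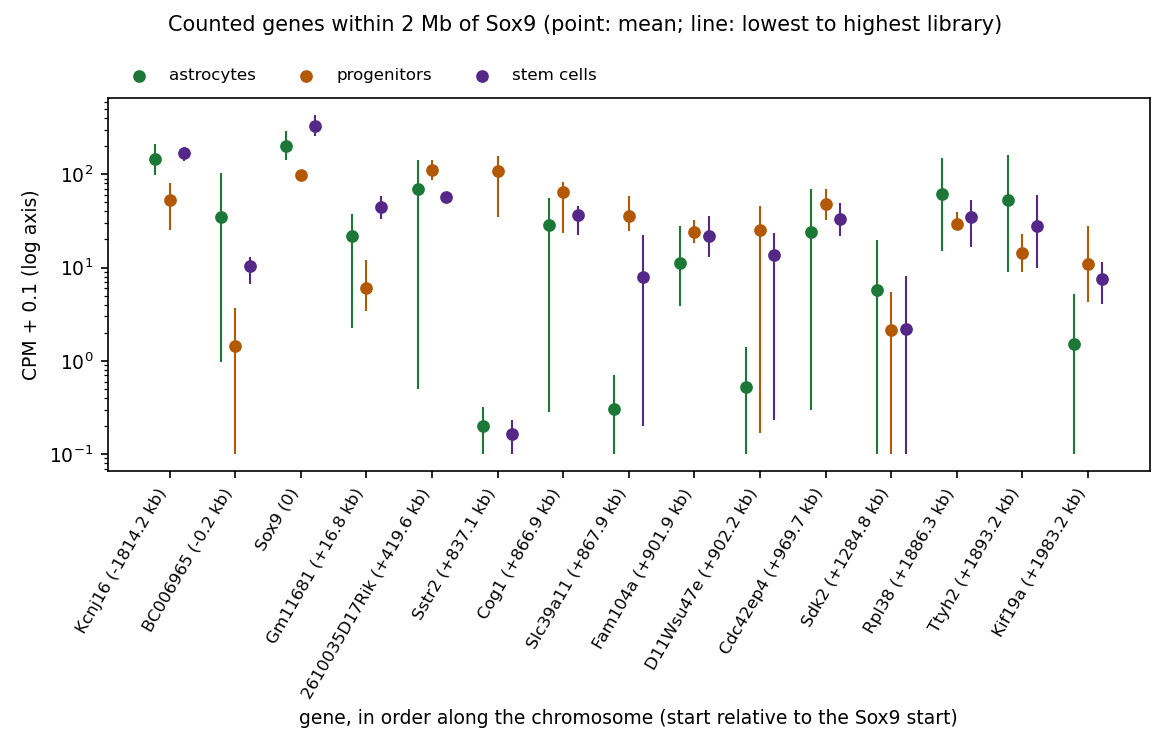
Level of Sox9, Gm11681 and the 13 other counted genes within 2 Mb, in order along the chromosome with the distance of each start from the Sox9 start, as mean CPM + 0.1 on a log axis (points) with the lowest and highest library (lines) for each cell type. By mean, Sox9, Gm11681, Kcnj16, BC006965, Sdk2, Rpl38 and Ttyh2 are lowest in progenitors. The other genes shown, Sstr2 and Slc39a11 among them, are highest there, and the ranges of many genes overlap.

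Genes known as partners or targets of SOX9 in astroglia differed in both directions. Of the 16 in the list, 9 were higher in stem cells than in progenitors and 4 were higher in progenitors, against 3.66% and 4.95% of all genes. The 9 were Slc1a2, Slc1a3, Glul, Aldh1l1, Gfap, Aqp4, Fgfr3, Mmd2 and Rfx4, most of which serve astroglial functions such as glutamate uptake, glutamine synthesis, folate metabolism and water transport. The 4 were Nfib and Nfix, members of the nuclear factor I family, the zinc finger gene Zbtb20, and Apcdd1, an inhibitor of Wnt signalling. The median log2 fold change of progenitors over stem cells was -0.94 in the list and 0.04 over all genes tested. This list and those below were chosen with earlier results of these data known. Nothing is therefore read from how their shares and medians compare with those of all genes. Slc1a3 encodes the sort antigen, so its difference is not independent of the gate. Stem cells and astrocytes were sorted with GLAST and progenitors without it. Differences of the other astroglial genes and of Sox9 from progenitors therefore cannot be told apart from the gate either. In addition, 4 genes of the list, Aqp4, Aldh1l1, Slc1a2 and Slc1a3, are also astrocyte markers above.

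Slc1a2, the main glutamate transporter of astrocytes, was at 5326 to 6316 CPM in stem cells and 1599 to 2252 in progenitors (log2 fold change of progenitors over stem cells -1.63, SE 0.14, adjusted p = 0.000267). Glul, glutamine synthetase, was at 1897 to 2436 CPM in stem cells and 643 to 1039.6 in progenitors (-1.54, SE 0.18, adjusted p = 0.00115). Fgfr3, a fibroblast growth factor receptor of astroglia, was at 236 ± 66.8 CPM in stem cells and 71.1 ± 21.6 in progenitors (SD, n = 4 each; -1.75, SE 0.28, adjusted p = 0.00502). Over the genes of the list called higher in stem cells, log2 fold changes ran from -1.75 (Aldh1l1 and Fgfr3) to -0.93 (Rfx4), with Mmd2 at -0.96. Sox9, selected on its levels, was at -1.77. Nfix, at 634 ± 172 CPM in progenitors and 115 ± 33.6 in stem cells (SD, n = 4 each), went the other way (2.44, SE 0.29, adjusted p = 0.00118), and so did Nfib, at 788 ± 224 and 288 ± 61.3 CPM (1.43, SE 0.24, adjusted p = 0.00645). Nfia, the partner of SOX9 in glial specification, was at 280.3 ± 46.7 CPM in progenitors and 247 CPM in stem cells, with an adjusted p of 0.685. Apcdd1 was at 3.74 to 11.2 CPM in progenitors and had 0 counts in every stem cell library, which makes it at least 19.3-fold higher in progenitors when 3 counts per library are set as the floor (adjusted p = 0.00787). All adjusted p-values are from edgeR's quasi-likelihood test. Among the 8 fits that left out a library, Rfx4 kept its call in 1, that without stem cell 3. The Gfap call was lost without progenitor a, c or d or stem cell 1 or 3, and the Zbtb20 call without progenitor b or d or stem cell 4. With all 12 libraries in 1 fit, the calls for Fgfr3, Gfap and Rfx4 were lost.

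**Figure D5:**
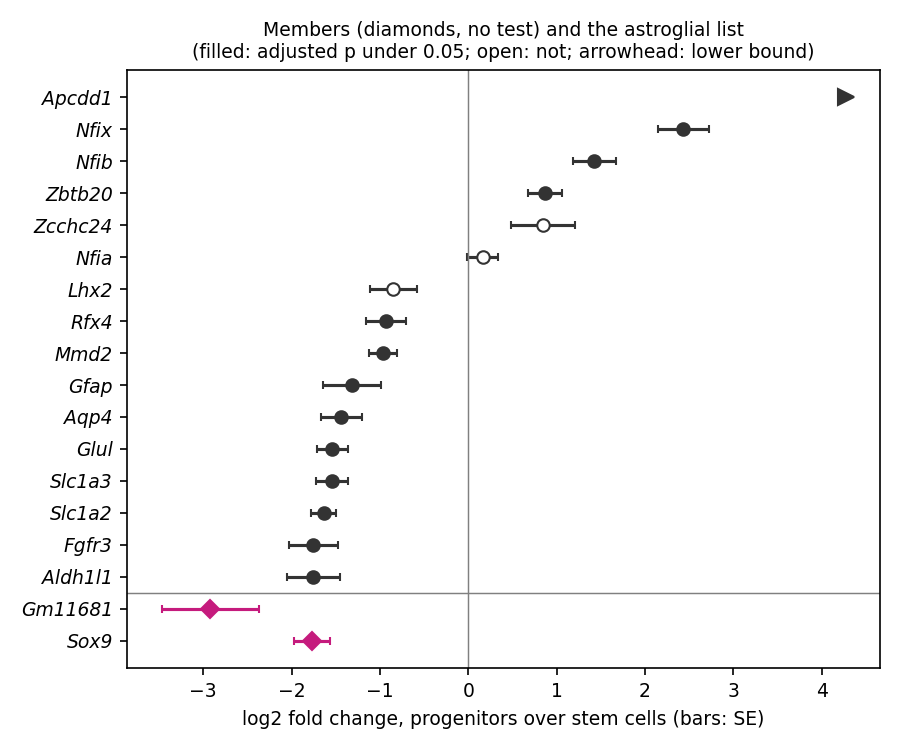
Log2 fold change of progenitors over stem cells with its SE for Sox9 and Gm11681 (diamonds, no test) and for the 16 genes of the astroglial list, filled where the adjusted p was below 0.05. Both members and 9 called genes lie below 0, whereas Nfix, Nfib, Zbtb20 and Apcdd1 lie above it, Apcdd1 as a lower bound (arrowhead).

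Between astrocytes and progenitors, 3 of the 16 were higher in astrocytes (Slc1a2, Aldh1l1 and Glul) and 2 higher in progenitors (Nfib and Apcdd1), against 2.45% and 6.18% of all genes tested. The log2 fold changes of astrocytes over progenitors were 1.51 (SE 0.15) for Slc1a2, 1.46 (SE 0.33) for Aldh1l1, 1.23 (SE 0.28) for Glul and -1.78 (SE 0.33) for Nfib, with adjusted p-values of 0.000963, 0.0205, 0.0207 and 0.016 in edgeR's quasi-likelihood test. Apcdd1 had 2 counts in all in astrocytes. The median was 0.48, against 0.03 over all genes tested. Fewer were called with a progenitor library left out, 3 without a, 3 without b, 2 without c and 2 without d, and without astrocyte c the Apcdd1 call was lost, while the calls for Slc1a2 and Nfib held in all 8 such fits. Between astrocytes and stem cells, 0 of 15 were called by edgeR and 0 by DESeq2, 3 had an unadjusted p under 0.05 in edgeR, all higher in stem cells, and the median was -0.23 against 0.14 over all genes tested. Aqp4, the water channel of astrocytes, was at 563 ± 172 CPM in astrocytes and 1239 ± 180.3 in stem cells (SD, n = 4 each), with an adjusted p of 0.0966.

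The cartilage targets of SOX9 were mostly low or not detected, with 10 of 16 tested between progenitors and stem cells. Acan (aggrecan) and Matn4 (matrilin 4), matrix genes that are also made in the brain, were higher in progenitors, and Hapln1, which links hyaluronan to proteoglycans, was higher in stem cells, that is 2 and 1 of the 10, against 4.95% and 3.66% of all genes tested. Acan was at 1.31 to 9.16 CPM in progenitors and at 0 counts in every stem cell and astrocyte library, at least 12.1-fold and 8.21-fold lower (adjusted p = 0.0146 and 0.019, edgeR's quasi-likelihood test). Matn4 was at 133 to 291 CPM in progenitors, 0.262 to 8.85 in stem cells and 0 to 1.40 in astrocytes (adjusted p = 0.00587 and 0.00536). Hapln1 was at 47.2 to 73.7 CPM in progenitors and 109 to 236 in stem cells (log2 fold change -1.36, SE 0.29, adjusted p = 0.0169). Without progenitor b or d the Hapln1 call was lost, and without progenitor c so was the Acan call against astrocytes. With all 12 libraries in 1 fit, both calls against stem cells, Acan and Hapln1, were lost. The median over the 10 was 0.04, equal to that over all genes tested, while between astrocytes and progenitors it was -0.81 over 10 genes, with Acan and Matn4 called higher in progenitors, against 6.18% of all genes tested. Of 7 tested between astrocytes and stem cells, 0 were called by edgeR or DESeq2 and 0 had an unadjusted p under 0.05. The cartilage genes thus did not share 1 direction with Sox9.

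Of the 11 genes of the testis pathway, 2 could be tested. Fgfr2, a receptor of FGF9, was at 92.3 to 116 CPM in stem cells and 32.4 to 56.6 in progenitors (log2 fold change of progenitors over stem cells -1.20, SE 0.28, adjusted p = 0.024, edgeR's quasi-likelihood test), a call lost without progenitor c, progenitor d or stem cell 1, without the count filter and with all 12 libraries in 1 fit. The 1 of 2 called higher in stem cells compares with 3.66% of all genes tested. Ptgds, prostaglandin D synthase, was at 12.5 to 6490.0 CPM in progenitors and 10.1 to 57.4 in stem cells, with a single library at the top and an adjusted p of 0.121. Between astrocytes and the other cell types, 0 of 2 were called by edgeR or DESeq2, and 1 had an unadjusted p under 0.05 against progenitors.

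Among the 15 other SOX genes, 12 were tested between progenitors and stem cells. Sox10, the regulator of the oligodendrocyte lineage, and Sox11, a gene of newborn neurons, were higher in progenitors, against 4.95% of all genes tested, and 0 were higher in stem cells, against 3.66% (0 also by DESeq2 and at an unadjusted p under 0.05). Sox10 was at 111 to 229 CPM in progenitors, 0.103 to 2.98 in stem cells and 0 to 5.91 in astrocytes (adjusted p = 0.00196 and 0.016, edgeR's quasi-likelihood test). Sox11 was at 336 to 578 CPM in progenitors, 0.515 to 17.9 in stem cells and 4.77 to 109.8 in astrocytes (adjusted p = 0.00247 and 0.0227). The Sox11 call against astrocytes was lost when astrocyte c or d or any progenitor library was left out, whereas the other 3 calls held in each of those fits. Both genes are lineage markers counted above.

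Sox8, which with Sox9 and Sox10 forms the SoxE group, was at 78.4 to 155 CPM in progenitors, 5.74 to 70.3 in stem cells and 3.12 to 110.0 in astrocytes. It was not called between progenitors and stem cells (adjusted p = 0.16, edgeR's quasi-likelihood test). Within SoxE, Sox9 was thus lowest in progenitors, whereas Sox10 was highest there. Sox2, a gene of neural stem cells and astroglia, was at 20.8 to 65.4 CPM in stem cells, 13.4 to 38.1 in progenitors and 39.5 to 102 in astrocytes, with overlap between stem cells and progenitors and an adjusted p of 0.418. The median log2 fold change of progenitors over stem cells was 0.21 in the SOX list and 0.04 over all genes tested. Between astrocytes and progenitors it was 0.03 in both, with Sox10 and Sox11 the 2 of 11 called higher in progenitors, against 6.18% of all genes tested, and between astrocytes and stem cells it was 0.22, with 0 of 11 called by edgeR or DESeq2 and 1 gene with an unadjusted p under 0.05.

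The last list held genes of signals known to act on Sox9, from the Notch, BMP, Hedgehog, FGF, Wnt and Hippo pathways. Of 21 tested between progenitors and stem cells, 4 were higher in stem cells and 0 in progenitors, against 3.66% and 4.95% of all genes tested (by DESeq2 6 and 0; at an unadjusted p under 0.05 in edgeR 7 and 1). Bmpr1b, a BMP receptor, was at 133 to 174 CPM in stem cells and 51.1 to 84.5 in progenitors (log2 fold change of progenitors over stem cells -1.29, SE 0.23, adjusted p = 0.00867, edgeR's quasi-likelihood test). Gli3, a transcription factor of Hedgehog signalling, was at 62.1 to 97.9 and 16.1 to 31.5 CPM (-1.83, SE 0.33, adjusted p = 0.00846), and both calls held whichever library was left out. With all 12 libraries in 1 fit, 0 of the 4 calls remained. Notch2 (-1.10, SE 0.28, adjusted p = 0.0391) and the Hedgehog receptor gene Ptch1 (-1.32, SE 0.32, adjusted p = 0.0309) passed as well, but each was lost in 6 of the 8 fits that left out a library, Notch2 in all but those without stem cell 1 or 4 and Ptch1 in all but those without stem cell 2 or 4. With progenitor a, b, c or d or stem cell 3 left out, 2 of the 4 were called. Among the highest genes that were not called, Id3 was at 385 ± 182 CPM in stem cells and 272 ± 75 in progenitors, and Fgfr1 at 292 ± 70.6 and 208 ± 54.6 (SD, n = 4 each). The median log2 fold change was -0.51, against 0.04 over all genes tested.

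Notch2 was also higher in astrocytes than in progenitors, at 148 to 562 against 63.6 to 85.7 CPM (log2 fold change 2.07, SE 0.48, adjusted p = 0.0223, edgeR's quasi-likelihood test), and was the 1 gene of 20 called there, against 2.45% of all genes tested. This call was lost when any progenitor library was left out, whereas without astrocyte a 4 genes of the list were called. The median was 0.54, against 0.03 over all genes tested. Between astrocytes and stem cells, 0 of 21 were called by edgeR or DESeq2, 1 had an unadjusted p under 0.05, and the median was 0.25, against 0.14 over all genes tested.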

How the data were processed

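Counts for 12 libraries were used, 4 per cell type. The authors deposited raw counts per gene: reads were aligned to GRCm38.p4 with HISAT2 2.0.6 and counted on GENCODE M14 genes with featureCounts, without strand. The counts hold no molecular identifiers, so amplified copies of 1 molecule are counted as separate reads. The intervals cover error in counting reads only and can be too narrow for molecules. The study's text gives 1 mouse brain per biological replicate. Stem cell columns were matched to sample titles by number. Astrocyte and progenitor columns carry no number and were lettered a to d.

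Of 50600 identifiers, 50376 matched GENCODE M21 (GRCm38) by ID. Pairs of cell types were fitted by edgeR 4.0.16 under R 4.3.3 (TMM, quasi-likelihood, 10 counts needed in 4 or more of 8 libraries, Benjamini-Hochberg threshold 0.05). The step was tested on simulated data. DESeq2 1.42.0, other size factors, no filter, a joint fit and leaving out each library were alternatives. Correlations used log2(CPM + 1). Named genes are the members, the 10 most correlated with each, called list or locus members and, for context, Sox2, Sox8 and abundant members. Members and lists were chosen with earlier results of these data known. RefSeq promoters were matched by symbol, which gave 1 of 2 members.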

Additional observations from a re-analysis of the deposited data

Results flagged for a closer look

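For 60 named genes and for the Gm11681 to Sox9 ratio, the highest and the lowest library of each cell type were compared with the other 3 by Dixon's ratio. In 15 of 183 groups 1 library stood apart. The rule flags about 1 in 20 groups of normally distributed values. Its rate for CPM, often near 0 here, was not measured, so the 15 are not read as an excess. Progenitor c had Gm11681 at 11.9 CPM against 3.34 to 4.62 in the other progenitors, and it was also the library with Mlc1, a gene close to Gm11681 in its pattern, at 428 CPM against 241 to 258. Astrocyte a, in which Gm11681 was lowest, had Atp6v0e at 182 CPM against 321 to 338, Fam104a at 27.6 CPM against 3.79 to 7.51, D11Wsu47e at 1.30 CPM against 0 to 0.204, and Sox11 at 109.8 CPM against 4.77 to 19.4. Mlc1 and Atp6v0e were named for their r with Gm11681 over these same libraries. That they share its outlying libraries follows in part from this choice, and nothing is read from it. In astrocyte b, Sdk2 was at 19.8 CPM against 0 to 1.99 and Apcdd1 at 0.367 CPM against 0. Astrocyte c had Ttyh2 at 160.8 CPM against 8.76 to 32.1 and Matn4 at 1.40 CPM against 0 to 0.183. Astrocyte d had Kif19a at 5.10 CPM against 0 to 0.399 and Sox10 at 5.91 CPM against 0 to 0.434. Progenitor b had Kif19a at 27.9 CPM against 4.19 to 7.30. Stem cell 1 had Sdk2 at 7.93 CPM against 0 to 0.373, and stem cell 3 had Matn4 at 8.85 CPM against 0.262 to 0.559. Of these 15, 10 were in astrocyte libraries.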

How the results depend on the processing

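No paired analysis was possible because the astrocyte and progenitor columns carry no replicate number. Each difference of Sox9 and Gm11681 between cell types kept its sign in every fit and moved by less than the spread between libraries. No value reversed. For astrocytes against progenitors, 1278 genes were called, 2993 by DESeq2, 529 without a filter and 719 to 1871 with 1 library left out (719 without progenitor c, 794 without d). For progenitors against stem cells, 1327 were called, 3062 by DESeq2, 381 with all 12 libraries in 1 fit and 830 to 1383 with 1 left out (830 without progenitor d). For astrocytes against stem cells, 6 were called, 853 by DESeq2, 16 without a filter, 346 in the joint fit and 0 to 8 with 1 left out (3 without stem cell 1, 0 without stem cell 3 or 4).

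For astrocytes against progenitors, no filter left 3 astroglial, 1 cartilage and 0 signal genes called, and DESeq2 called 2 signal and 4 locus genes. With 1 library left out, 2 to 7 astroglial, 1 to 3 cartilage, 1 to 3 SOX and 0 to 4 signal genes were called. For progenitors against stem cells, DESeq2 called 5 cartilage genes, and no filter left 0 testis and 2 signal genes and lost Rfx4. The joint fit left 1 cartilage, 0 testis, 0 signal and 1 locus gene. With 1 library left out, 0 to 1 testis and 2 to 4 signal genes were called. For astrocytes against stem cells, the joint fit called 1 astroglial gene and DESeq2 2 locus genes.

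The correlation of 0.833 became 0.502 after centring on cell types and 0.740 without the stem cell libraries, a setting chosen after seeing the data. The share of neighbouring pairs at or above it was 11.8%, and 27.9% with 10 counts in every library, 20% by Spearman rho and 0.998% by gene bodies within 10 kb, also chosen after seeing the data. By rho, 5 and 2 of the 10 genes most like Sox9 and Gm11681 were retained. Precision from counting was lowest for Gm11681 in astrocyte a, with 10 counts in a library of 5904835.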
